A study of Phaseolus vulgaris with 6 samples.

Results

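A set of 33 genes of the common bean stood higher in EPI trichomes than in AG trichomes and in hooked hairs, out of 27433 genes listed. The members were chosen by level. A gene entered the set when its lower value in the EPI libraries was at least 10 TPM and at least 3 times its highest value in the AG and BG libraries. TPM is an expression level corrected for gene length and library size. The difference between EPI and the other groups is therefore given below as a description, without a test. Both EPI libraries held 12066 genes at 10 TPM or more, so the members were a small part of the genes active there.

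RNA was sequenced from hair-like structures of common bean (Phaseolus vulgaris) of the genotype L88-57, in 6 libraries that formed 3 groups of 2. The AG and EPI groups were trichomes and the BG group was hooked hairs, with no treatment in any group. All plants had the same genotype and were raised under controlled conditions in low light. The labels do not spell out the group codes, and they say neither how the hairs were collected nor whether replicates are separate plants. The p-values then measure only the spread between these samples, which may be technical. In such bulk samples, fewer cells of a type and less RNA per cell cannot be told apart.

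Trichomes are outgrowths of the plant epidermis that can be hair-like or glandular, and they act in defence against herbivores, in secretion and in limiting water loss. Hooked hairs end in a curved tip and are known in beans for catching on surfaces and insects. Each kind of hair is built by epidermal cells that switch on their own sets of genes for cell wall, cuticle, secretion and specialised metabolism.

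The files pair the gene IDs with no symbol or product, so the members are given by ID and by position, and no function is assigned to them. By position, 26 of the 33 members had a partner in the RefSeq gene table of the assembly P. vulgaris v2.0, and all 26 partners were protein-coding genes without a descriptive symbol. Over all genes on chromosomes, 84.8% had such a partner, against 11.9% when the RefSeq positions were shifted by 50000 bp. Lists of epidermal, cell wall, hormone and defence genes, and markers of other plant cell types, could not be matched, and the labelled structures were not checked against marker genes.

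Depth, judged from the ratio of coverage to FPKM, differed by up to 1.47-fold between libraries on the assumption of equal read length, and it was lowest in EPI library 2. From 19194 to 20556 genes per library stood at 1 TPM or above. The members' read coverage in the EPI libraries ran from 8.41 to 1181 reads per base, with medians of 68.6 and 30.6. In the AG and BG libraries their median coverage was only 2.35 to 7.03 reads per base, so ratios against those libraries carry large counting error for the low members. The number of mapped reads per library is unknown, and no counting intervals are given.

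Summed over the 33 members, the level was 3792 and 3123 TPM in the EPI libraries. The same sum was 464.5 and 569.6 TPM in the AG libraries, and 266.7 and 252.4 TPM in the BG libraries. The members thus held 0.394% and 0.326% of the listed TPM in EPI, and no more than 0.061% in any other library. The median member stood at 52.4 and 28.2 TPM in EPI, at 1.87 and 5.16 TPM in AG, and at 2.07 and 2.76 TPM in BG. The ratio of the lower EPI value to the highest AG or BG value had a median of 4.04 and ran from 3.02 to 44.5. It reached 5 in 10 members and 10 in 2 members. Between the groups' means, EPI stood 3.36-fold to 168.7-fold above AG, with a median of 10.4-fold.

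The expression of these genes was not confined to EPI. A total of 9 members reached 10 TPM in at least 1 AG or BG library, and these included the most abundant members. No member was listed at 0 in all 4 AG and BG libraries. Only 2 members, Phvul.008G180500.v2.1 and Phvul.003G114000.v2.1, stayed under 1 TPM in all 4.

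**Figure D1:**
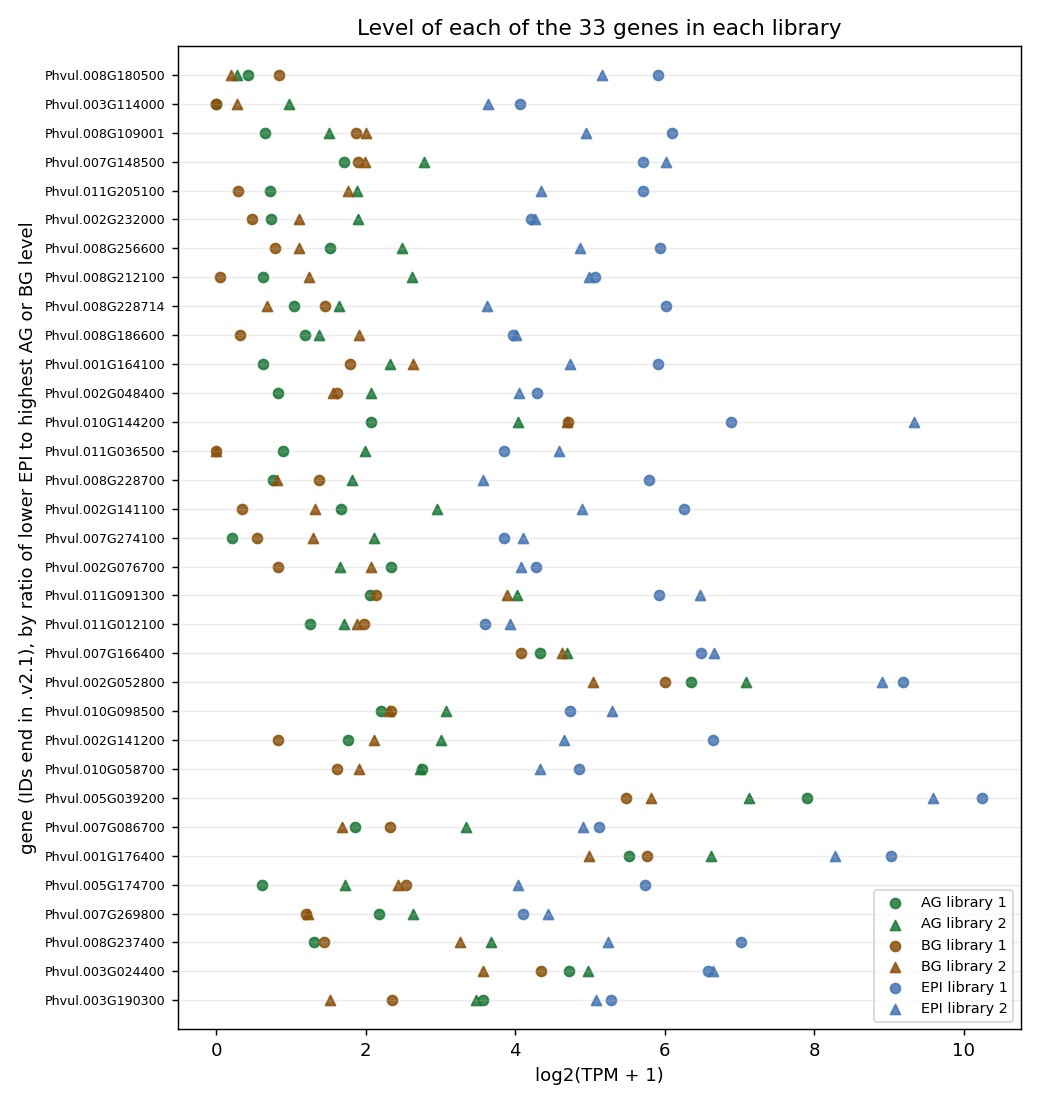
Level of each of the 33 genes in each of the 6 libraries as log2(TPM + 1), with genes ordered from the largest (44.5) to the smallest (3.02) ratio of the lower EPI value to the highest AG or BG value. Circles are library 1 and triangles library 2 of a group, and by the choice of the genes both EPI points lie to the right of the other 4 in every row.

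The gene with the sharpest difference was Phvul.008G180500.v2.1 (chromosome 8, 51021869 to 51023764, plus strand). It stood at 58.99 and 34.9 TPM in the EPI libraries, at 0.344 and 0.213 TPM in AG, and at 0.784 and 0.148 TPM in BG. Both EPI libraries lay at least 44.5 times above every other library. Outside EPI it stayed under 1 TPM, and its partner in the RefSeq table was LOC137826714.

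Phvul.003G114000.v2.1 (chromosome 3, 29080481 to 29082127, plus strand) followed with a ratio of 11.8. Its level was 15.8 and 11.4 TPM in EPI, 0.965 TPM in AG library 2 and 0.209 TPM in BG library 2, and it was listed at 0 in AG library 1 and BG library 1. It was among the lower members in EPI, and trace amounts outside EPI appeared in library 2 of each group.

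Next was Phvul.008G109001.v2.1 (chromosome 8, 10681885 to 10685563, minus strand), with 67.7 and 29.7 TPM in EPI, 0.576 and 1.85 TPM in AG, and 2.66 and 3.00 TPM in BG. Its BG values lay above both AG values. Phvul.007G148500.v2.1 (chromosome 7, 24584723 to 24587034, plus strand) stood at 51.1 and 63.5 TPM in EPI, against 2.28 and 5.89 TPM in AG and 2.74 and 2.97 TPM in BG. Of these leading genes it was the one with the higher value in EPI library 2, and its AG and BG values overlapped.

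A further 6 members had ratios between 5.31 and 7.16. Among them, Phvul.008G212100.v2.1 (chromosome 8, 56038145 to 56042705, plus strand) was even between the EPI libraries, at 32.6 and 30.6 TPM. It stood at 0.538 and 5.16 TPM in AG and at 0.034 and 1.36 TPM in BG, so AG library 2 was the nearest to EPI. Phvul.002G232000.v2.1 (chromosome 2, 40436262 to 40439964, minus strand) was likewise even in EPI, at 17.5 and 18.2 TPM, with 0.66 and 2.74 TPM in AG and 0.391 and 1.16 TPM in BG. Phvul.008G186600.v2.1 (chromosome 8, 52363771 to 52366766, plus strand) showed the same evenness at 14.6 and 15.2 TPM, with 1.27 and 1.60 TPM in AG and 0.244 and 2.76 TPM in BG.

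The other members in this range differed more between the EPI libraries. Phvul.008G256600.v2.1 (chromosome 8, 60401352 to 60405162, minus strand) stood at 60.1 and 28.2 TPM in EPI, 1.87 and 4.61 TPM in AG, and 0.718 and 1.16 TPM in BG. Phvul.011G205100.v2.1 (chromosome 11, 52186328 to 52187077, plus strand) stood at 51.5 and 19.3 TPM in EPI, 0.652 and 2.70 TPM in AG, and 0.221 and 2.39 TPM in BG. In both genes EPI library 1 was more than 2-fold above EPI library 2.

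By abundance the set was led by a small number of genes. The 5 with the highest EPI means held 66.6% and 73.8% of the members' summed TPM in the EPI libraries, and between 60.9% and 84.3% in the other libraries. Only 4 members were among the 1000 most abundant genes by EPI mean, and the median member ranked 5476th.

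Phvul.005G039200.v2.1 (chromosome 5, 3809328 to 3815125, minus strand) was the most abundant member and ranked 76th of all listed genes by its EPI mean. Its level was 1214 and 772 TPM in EPI, 237.3 and 138.3 TPM in AG, and 43.9 and 55.4 TPM in BG. The groups formed 3 separate steps, with EPI highest and BG lowest. This gene alone held 32.02% and 24.71% of the members' summed TPM in EPI.

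Phvul.002G052800.v2.1 (chromosome 2, 4814466 to 4815919, plus strand) stood at 579.5 and 478.7 TPM in EPI, 80.9 and 134.5 TPM in AG, and 63.1 and 31.9 TPM in BG. Phvul.001G176400.v2.1 (chromosome 1, 43316518 to 43317678, minus strand) stood at 518.3 and 310.3 TPM in EPI, 44.8 and 97.2 TPM in AG, and 53.2 and 30.6 TPM in BG. The former kept the order EPI, AG, BG without overlap, while AG and BG overlapped in the latter. Both were above 30 TPM in every library, with EPI means 4.91-fold and 5.83-fold above the AG means.

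Phvul.010G144200.v2.1 (chromosome 10, 42593827 to 42595431, plus strand) was the member with the strongest bias towards EPI library 2. Its EPI libraries differed widely, with 117.5 TPM in the first and 646.5 TPM in the second, and it stood at 3.21 and 15.4 TPM in AG, and at 25.0 and 24.9 TPM in BG. EPI library 2 was 5.502-fold above EPI library 1, and this was the only member at least 2-fold higher in EPI library 2. Its BG level lay above both AG libraries.

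Phvul.003G024400.v2.1 (chromosome 3, 2315520 to 2316642, plus strand) stood at 94.4 and 98.96 TPM in EPI, 25.4 and 30.4 TPM in AG, and 19.4 and 10.9 TPM in BG. Phvul.007G166400.v2.1 (chromosome 7, 28183756 to 28184172, minus strand) stood at 88.9 and 100.4 TPM in EPI, 19.1 and 24.8 TPM in AG, and 15.8 and 23.8 TPM in BG. Both were even within EPI, and AG and BG overlapped in the latter only. Phvul.011G091300.v2.1 (chromosome 11, 9018314 to 9019232, minus strand) stood at 59.5 and 87.7 TPM in EPI, and its library 2 was higher in every group, with 3.17 and 15.3 TPM in AG and 3.38 and 13.8 TPM in BG.

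The members just inside the limit of 3 times were Phvul.003G190300.v2.1 with a ratio of 3.02, Phvul.003G024400.v2.1 with 3.10 and Phvul.008G237400.v2.1 with 3.11. The genes just outside it were Phvul.003G052000.v2.1 with 2.96, Phvul.008G136800.v2.1 with 2.95 and Phvul.004G132000.v2.1 with 2.95. The limit therefore cut through a continuous range of ratios. With a limit of 2 times, 114 genes met the rule, and with 5 times 10 genes did. A floor of 5 TPM in place of 10 TPM gave 50 genes, and a floor of 20 TPM gave 19.

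The next question was whether the members moved together within the groups. The rule does not set which library of a group is higher. It does use the same values, with a floor for EPI and a cap on AG and BG relative to EPI. The genes tested met no such rule, so the shares beside them are description. The EPI libraries differed by less than 1.5-fold in 18 of the 33 members, a count that was not made over all genes tested. In 10 members EPI library 1 was at least 2-fold higher, and in 1 member EPI library 2 was. The former share was 30.3% of the members, against 12.6% of the 21571 genes tested. The count was also 10 of 33 after median-of-ratios scaling, against 13.8% of genes tested.

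Neighbouring members shared this bias. Phvul.008G228714.v2.1 and Phvul.008G228700.v2.1 (chromosome 8, 57886900 to 57892058 and 57906055 to 57910838, both plus strand) lie next to each other, 13996 bp apart. The former stood at 63.8 and 11.4 TPM in EPI, 1.06 and 2.11 TPM in AG, and 1.74 and 0.599 TPM in BG. The latter stood at 54.5 and 10.9 TPM in EPI, 0.697 and 2.52 TPM in AG, and 1.59 and 0.761 TPM in BG. The pair ran in parallel, with EPI library 1 above EPI library 2 by 5.62-fold and 5.02-fold, the largest ratios in that direction. EPI library 2 placed both close to the floor of 10 TPM. The pair had separate partners in the RefSeq table, LOC137825503 and LOC137826297. Whether they share reads was not tested.

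Phvul.002G141100.v2.1 and Phvul.002G141200.v2.1 (chromosome 2, 28785024 to 28785782 and 28788346 to 28789689, both plus strand) were the other neighbouring pair, 2563 bp apart. The former stood at 75.8 and 28.8 TPM in EPI, 2.18 and 6.77 TPM in AG, and 0.266 and 1.505 TPM in BG. The latter stood at 99.2 and 24.2 TPM in EPI, 2.39 and 7.03 TPM in AG, and 0.767 and 3.33 TPM in BG. In both genes EPI library 1 was highest, EPI library 2 and AG library 2 followed, and BG library 1 was lowest. Both overlapped the same RefSeq gene, LOC137809320, and neither reached a reciprocal overlap of 50.0% with it. The deposited tables count the pair as 2 genes where RefSeq has 1 gene over both.

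Outside EPI, AG library 2 was the library in which most members came nearest to their EPI level. The highest AG or BG value belonged to AG library 2 in 22 members, to AG library 1 in 4, to BG library 1 in 4 and to BG library 2 in 3. AG library 2 stood above AG library 1 in 28 of 33 members (84.8%), against 65.9% of the genes tested. It was at least 2-fold higher in 21 members (63.6%), and AG library 1 was at least 2-fold higher in 0. Over the genes tested these shares were 19.2% and 8.4%.

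AG library 1 had the fewest genes at 1 TPM and a median-of-ratios size factor of 0.832, against 1.05 for AG library 2. After that scaling, AG library 2 was above AG library 1 in 26 of 33 members, against 44.8% of genes tested, and at least 2-fold higher in 18, against 13.4%. The part of depth and of the low levels outside EPI in these differences was not tested. In BG, library 2 was above library 1 in 19 of 33 members (57.6%), against 53.3% of genes tested. BG library 2 was at least 2-fold higher in 13 members (39.4%), against 7.5% of genes tested, and BG library 1 in 5 (15.2%), against 12.9%. After median-of-ratios scaling BG library 2 was again at least 2-fold higher in 13 members, against 6.4% of genes tested. The abundant Phvul.005G039200.v2.1 went the other way, with AG library 1 at 237.3 TPM and AG library 2 at 138.3 TPM.

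**Figure D2:**
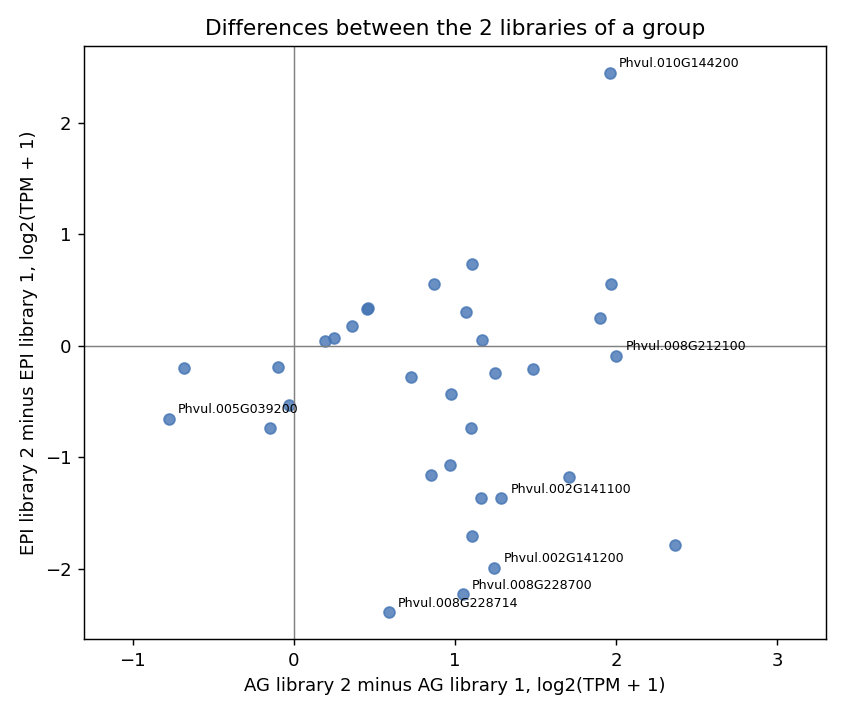
Difference between library 2 and library 1 of AG (horizontal axis) and of EPI (vertical axis) for the 33 genes, in log2(TPM + 1). Of the 33 points, 28 lie to the right of the vertical line, and Phvul.010G144200.v2.1 stands alone at the top, with EPI library 2 5.502-fold above EPI library 1 in TPM.

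AG library 2 also set the size of the list more than any other library outside EPI. Without it, 99 genes met the rule, so 66 genes were kept out by AG library 2 alone. AG library 1 alone kept out 9 genes, BG library 1 kept out 7 and BG library 2 kept out 5. The EPI libraries each kept out more, since 169 genes met the rule without EPI library 1 and 168 without EPI library 2. Of the 135 genes that EPI library 2 alone kept out, 61 were below 10 TPM there and 74 reached 10 TPM but not 3 times the other groups. For EPI library 1 the corresponding counts were 80 and 56 of 136.

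**Figure D3:**
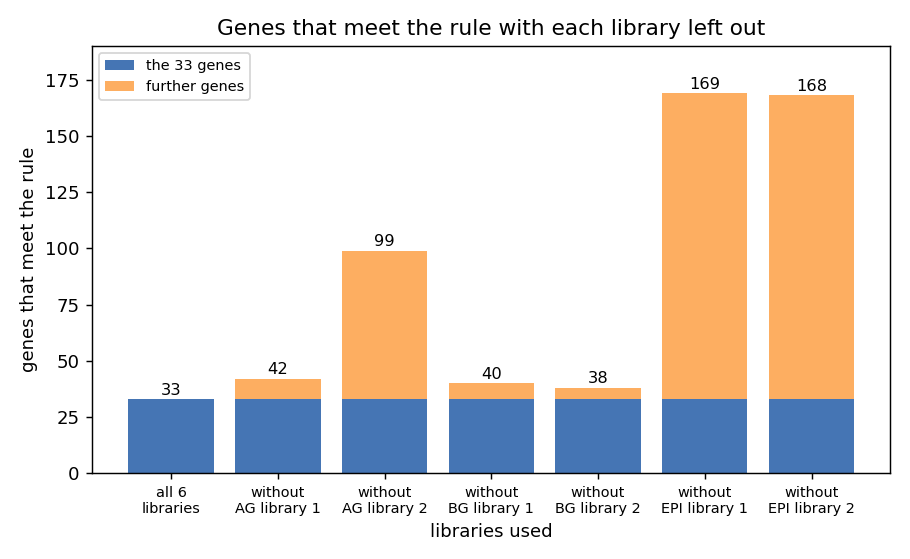
Number of genes that met the rule with all 6 libraries and with each library left out in turn, with the 33 genes in blue and further genes in orange. The count is 33 with all libraries, 38 to 42 without AG library 1 or either BG library, 99 without AG library 2, and 168 or 169 without an EPI library.

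Hooked hairs were then compared with AG trichomes, a direction that the rule left free. By limma, 1 of the 33 members (3.03%) passed the threshold of adjusted p under 0.05 in BG against AG. Of the 21571 genes tested 8.83% passed in either direction, with 1152 lower in BG and 753 higher. All members met the filter of this test by their EPI level alone, whatever their AG and BG levels, and most also met it by the latter. The member was Phvul.005G039200.v2.1, whose level was lower in hooked hairs, at 49.7 ± 8.16 TPM against 187.8 ± 70.0 TPM in AG (SD, n = 2; log2 difference -1.86 ± 0.38 SE, limma adjusted p = 0.0362). Both BG libraries lay below both AG libraries. The call held in 8 of 14 alternatives, with an adjusted p from 0.0289 to 0.158. It was lost without the low-value filter, after median-of-ratios scaling, with the replicate block (limma adjusted p = 0.0513), and without AG library 1 or either BG library (log2 difference -1.47, -1.69 and -2.02).

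The largest differences among the members that did not pass were in Phvul.003G190300.v2.1 and Phvul.010G144200.v2.1. Phvul.003G190300.v2.1 (chromosome 3, 41374886 to 41375122, minus strand) stood at 37.7 and 32.9 TPM in EPI, 10.9 and 10.1 TPM in AG, and 4.09 and 1.87 TPM in BG. Its log2 difference of BG and AG was -1.59 ± 0.38 SE (limma adjusted p = 0.0517, and 0.046 to 0.201 over the alternatives). Phvul.010G144200.v2.1, given above, had a log2 difference of 1.65 ± 0.91 SE (limma adjusted p = 0.275, and 0.14 to 0.754 over the alternatives). The direction of both was kept in all 14 alternatives.

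At an unadjusted limma p under 0.05, 7 of 33 members were lower in BG, where 13.1% of genes tested were. At the same limit 0 members were higher, where 17.1% of genes tested were. After median-of-ratios scaling the member counts were again 7 and 0, but the lean of all genes at this unadjusted limit reversed. Of 21527 genes tested, 3319 were then lower in BG and 2898 higher. Genes with a limma adjusted p under 0.05 leaned lower in BG before scaling (1152 lower, 753 higher) and after it (1115 and 514). Both AG libraries lay above both BG libraries in 9 members (27.3%), against 23.8% of genes tested. The reverse order, with both BG libraries above both AG libraries, held in 4 members (12.1%), against 36.5% of genes tested. Those 4 were Phvul.008G109001.v2.1, Phvul.010G144200.v2.1, Phvul.005G174700.v2.1 and Phvul.011G012100.v2.1, the last 2 named after their values were seen. In the other 20 members AG and BG overlapped. These orders are those of the deposited TPM and were not counted after scaling.

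On the log2 scale of the deposited TPM, the AG mean was above the BG mean in 26 of 33 members (78.8%), against 39.7% of genes tested. AG library 1 had a size factor of 0.832 in these values, so its typical gene stood low, though not every gene did. The part of this in the AG means was not tested. The shares with a higher AG mean were not counted after scaling. The median log2 difference of BG and AG was -0.31 over the members and 0.184 over all genes tested. Without AG library 2 the medians were 0.061 over the members and 0.336 over all genes tested, and without AG library 1 they were -0.956 and 0.025. The sign of the members' median thus depended on AG library 2, while it lay below the median of all genes in each of these settings. After median-of-ratios scaling the members' median was -0.419, and the median of all genes tested fell to 0.039.

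**Figure D4:**
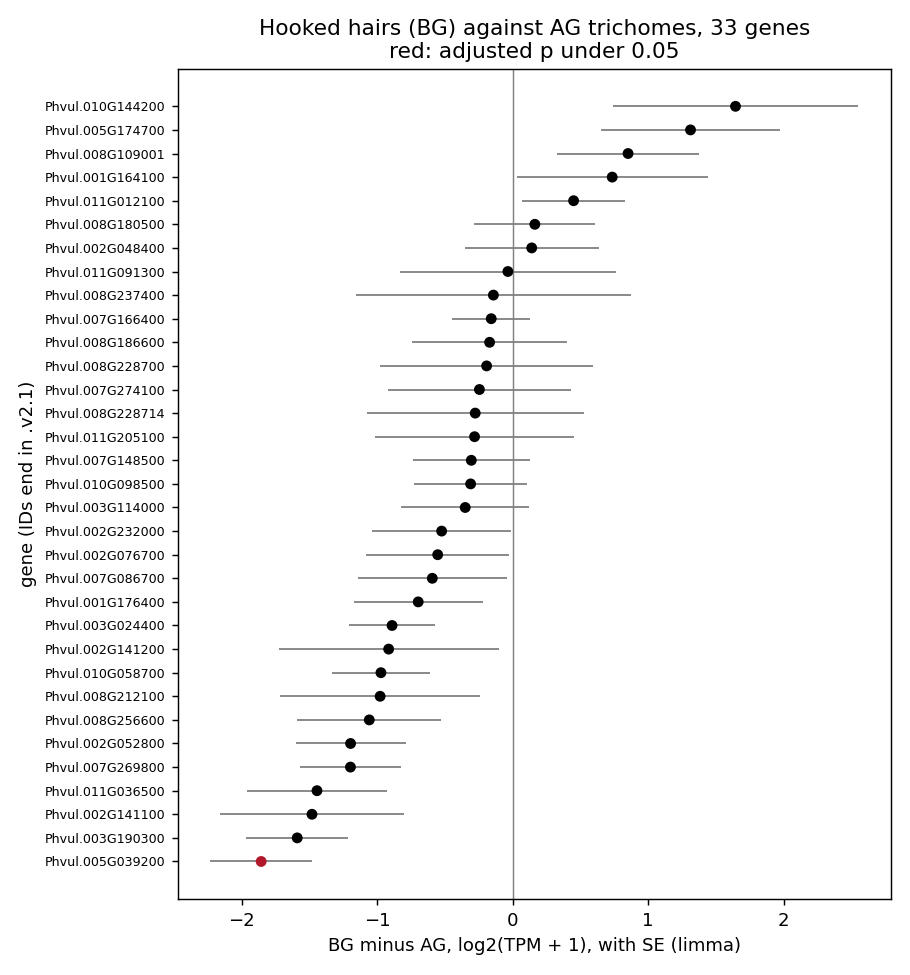
Difference between hooked hairs (BG) and AG trichomes for the 33 genes in log2(TPM + 1), with the SE of the limma fit as bars (2 libraries per group). Of the 33 points, 26 lie left of zero, and only Phvul.005G039200.v2.1, in red at -1.86, has an adjusted p under 0.05.

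The comparisons with EPI used the values that chose the members, so their counts are given as description. In EPI against BG, 25 of 33 members passed the threshold (limma adjusted p), where 3.32% of genes tested were called higher in EPI. In EPI against AG no gene of the whole table passed (0%), with a smallest limma adjusted p of 0.168 and 3554 genes under an unadjusted p of 0.05. In EPI against the mean of AG and BG no gene passed either (0%), with a smallest limma adjusted p of 0.0789 and 3435 genes under an unadjusted p of 0.05. In a comparison of 2 libraries against 2, the smallest two-sided p that an exact permutation test allows for a single gene is 0.33. That value does not cover EPI against the mean of AG and BG.

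The members lay on 8 of the 11 chromosomes. Chromosome 8 held 8 members (24.2%), against 10.5% of the genes tested, and chromosome 2 held 6 (18.2%), against 12.7%. Chromosomes 4, 6 and 9 held 0, with 5.88%, 8.17% and 10.3% of the genes tested. These counts are small, and the neighbouring pairs on chromosomes 2 and 8 each add 2.

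The members were short by gene span, which includes introns. The median span was 1896 bp, against 3354 bp over the genes tested, and the longest was 5798 bp. A total of 4 members (12.1%) spanned under 500 bp, against 2.5% of genes tested. They were Phvul.003G190300.v2.1 with 237 bp, Phvul.011G036500.v2.1 with 273 bp, Phvul.001G164100.v2.1 with 300 bp and Phvul.007G166400.v2.1 with 417 bp. All 4 spans were multiples of 3, and all 4 genes lacked a RefSeq partner. Phvul.011G036500.v2.1 overlapped the protein-coding RefSeq gene LOC137832997 but did not reach a reciprocal overlap of 50.0%, and the others overlapped no RefSeq gene. TPM of such short models depends strongly on how fragments at their ends are counted. Phvul.001G164100.v2.1 and Phvul.011G036500.v2.1 were named after their values were seen.

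A total of 11 members fell outside the rule for named genes. Their EPI means ran from 12.7 TPM in Phvul.011G012100.v2.1 to 42.4 TPM in Phvul.001G164100.v2.1. Their ratios of the lower EPI value to the highest AG or BG value lay between 3.12 and 4.93. None of the 11 reached 10 TPM in an AG or BG library.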

How the data were processed

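Gene expression was measured in 6 libraries, 2 per group, and the sample titles gave the groups and replicate numbers. The submitters' processing notes list Trimmomatic, HISAT2 and StringTie with no versions or order. For the genome build, nothing was given in the sources used here, and coordinates are those of the files. Per the file headers, each table holds coverage, FPKM and TPM per gene. The TPM values, scaled by the authors for length and library size, carried the main results. The deposited FPKM served as an alternative, and the deposited coverage served only to judge depth. TPM gives no counts, so no count test was run.

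The members and lists were chosen with earlier results of these data known. The limma package (3.58.1, in R 4.3.3) was run on log2(TPM + 1) for the 21571 genes that reached 1 TPM in 2 or more libraries. A pseudocount of 1 understates changes of low genes. The model had a mean for each group and used all 6 libraries (3 residual and 3.37 prior degrees of freedom), with a variance trend. Tests were two-sided, with Benjamini-Hochberg adjustment over all genes and a threshold of 0.05. The fit was also run on simulated data, with changes placed only in genes averaging above 10 TPM on the log2 scale. Its outcome is not given here. It does not cover changes at low levels, and 24 members were under 10 TPM in all 4 AG and BG libraries. Each SD is over the 2 libraries of its group.

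RefSeq genes were paired by position, with a reciprocal overlap of at least 50.0% of both spans. The table gives no strand, so strand was not used, and it gives no product names, so the gene lists fixed for this work were not tested. Of 27012 genes on chromosomes, 1062 shared an exact start or end with their partner. Named genes were the 12 members with the highest EPI mean, the 10 with the largest ratio, those passing in BG against AG, the 3 on each side of the fold limit, neighbouring members, and the 4 with the most and the 4 with the least uneven EPI libraries. Alternatives were other limits of the rule, pseudocounts, filters, FPKM, median-of-ratios scaling, a fit without the trend, a fit with a replicate block, and each library left out. Figures were drawn with matplotlib 3.10.9.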

Additional observations from a re-analysis of the deposited data

How the results depend on the processing

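The number of genes meeting the rule was 114 and 10 with fold limits of 2 and 5, 50 and 19 with floors of 5 and 20 TPM, and 20 with FPKM, where a floor of 10 is a higher bar because FPKM values are lower than TPM. It was 25 after median-of-ratios scaling, and 38 to 169 with a library left out. BG against AG gave 1905 called genes, 556 without the filter on low values and 0 to 2430 with a library left out. EPI against BG gave 1076, then 301 without the filter and 0 to 961 with a library left out. EPI against AG gave 0, and up to 14 with a library left out, all in the absence of EPI replicate 2. EPI against the mean of AG and BG gave 0 in every setting run. Members called in BG against AG numbered 1, then 2 with a pseudocount of 0.1 and with a filter of 5 TPM, 0 without the filter and after median-of-ratios scaling, and 0 to 1 with a library left out. Members called in EPI against BG numbered 25, then 12 without the filter and 0 to 22 with a library left out. The median log2 difference of BG and AG over the members was -0.31, with a change of sign to 0.061 without AG replicate 2 and -0.956 without AG replicate 1. The low-value filter and the libraries left out change how many genes and samples are tested, and the cause of the other changes was not tested.

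Same-numbered libraries did not deviate together in every pair of groups (correlations across genes of 0.096, -0.032 and 0.245), so the numbers are not taken as pairs. With the replicate block, BG against AG gave 1438 called genes, with 0 members called, and EPI against BG gave 855, with 19 members. The rule's settings and the within-group counts after scaling are given with the results. The alternatives to the within-group counts and to the median were chosen after seeing the data. Low coverage outside EPI limits the ratios of the low members to the AG and BG libraries.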

Other observations

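Some genes beside members had related levels, named after their values were seen. Phvul.008G237500.v2.1 (chromosome 8, 58588597 to 58592941), next to the member Phvul.008G237400.v2.1, stood at 7.21 and 7.72 TPM in EPI and at no more than 1.19 TPM in AG and BG, and it fell under the floor of 10 TPM. It was among 17 genes that met the fold limit with a lower EPI value of 5 to 10 TPM. The member Phvul.008G237400.v2.1 (chromosome 8, 58581448 to 58585204) stood at 128.9 and 36.7 TPM in EPI, 1.48 and 11.8 TPM in AG, and 1.70 and 8.62 TPM in BG, so library 1 was higher in EPI and library 2 in AG and BG.

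Phvul.010G144300.v2.1 (chromosome 10, 42602084 to 42603658) lies 6652 bp from the member Phvul.010G144200.v2.1. It stood at 250.6 and 587.8 TPM in EPI, 22.4 and 378.8 TPM in AG, and 5.16 and 1.19 TPM in BG. AG library 2 kept it out of the set. Both neighbours were higher in library 2 of EPI and of AG, while their order between BG and AG library 1 differed.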
